A study of Mus musculus with 6 samples.

Results

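The Hedgehog and PTHrP signaling genes were described in growth plate cartilage of mouse embryos at E18.5. The 9 genes, taken from the deposited table of 15803 genes by their symbols, were Ihh, Ptch1, Smo, Gli1, Gli2, Gli3, Hhip, Pthlh and Pth1r. All 9 were listed once in the table. The label CKO (3 libraries) stands for embryos of genotype Col2a1-Cre;Hnrnpk fl/fl, whose Cre, made under Col2a1 regulatory sequences, removes loxP-flanked exons of Hnrnpk in cells of the chondrocyte lineage. The label WT (3 libraries) stands for Hnrnpk fl/fl without Cre, so that both groups carried the floxed alleles and neither tested Cre alone. Embryos of both sexes were used and compared with littermates, and the sources used here do not say whether a library was made from 1 embryo or from a pool.

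In the growth plate, Indian hedgehog (Ihh) is secreted by chondrocytes that leave proliferation, the prehypertrophic chondrocytes. It binds the receptor Ptch1, which releases Smo from inhibition, and Smo then acts through the Gli transcription factors. PTHrP, encoded by Pthlh, is made by periarticular and resting chondrocytes and acts on its receptor Pth1r in proliferating and prehypertrophic cells to delay hypertrophy, and the pair form a feedback loop that sets the length of the proliferating columns.

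Expression was given as CPM, the reads on a gene scaled to a total of 1000000 over all listed genes. The libraries held 1153871 to 1454094 reads, so that 1 read was worth 0.688 to 0.867 CPM and 3 reads, the floor used here, 2.06 to 2.60 CPM. Hnrnpk itself had levels of 842, 955 and 944 CPM in the WT libraries and of 759, 950 and 780 CPM in the CKO libraries (log2 fold change -0.14, SE 0.15, adjusted p = 0.622), so the targeted gene's total reads did not separate the labels. Reads on the deleted exons cannot be told apart in a table of whole genes. Within WT, log2 values of libraries 1 and 2 correlated with r = 0.965 and those of library 3 with the others with r = 0.937 and 0.938. Within CKO, libraries 1 and 3 correlated with r = 0.965 and library 2 with the others with r = 0.924 and 0.921. WT 3 and CKO 2 therefore stood apart from their groups. CKO 1 and CKO 3 correlated more closely with WT 1 and WT 2 (r = 0.925 to 0.931) than with CKO 2. Chondrocyte markers were present in every library, and their summed level was 25064 to 31128 CPM in WT and 6317 to 6448 CPM in CKO, with 7 of 11 past the adjusted threshold, all lower in CKO. In such bulk RNA, fewer cells of a type and less RNA per cell cannot be told apart.

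Per kilobase of annotated exon, a scale on which genes may be compared, the receptors Pth1r and Smo were the most abundant of the 9 genes in both groups by the median library. In WT the median level was 19.1 CPM per kb for Pth1r and 13.2 CPM per kb for Smo, and the 3 libraries of these genes did not overlap. That separation depends on the length used. Per kb of the longest coding transcript (2307 bp for Pth1r, 3779 bp for Smo) the WT means were 24.0 and 20.4, and the libraries overlapped. Pthlh followed at 3.71 CPM per kb, with a range of 1.79 to 39.1 that overlapped Smo above it and Gli2 below it. Gli2 (1.27 CPM per kb) exceeded Gli1 (0.846) without overlap, whereas Gli1, Hhip (0.719) and Gli3 (0.391) overlapped as neighbors in that order. Ptch1 stood at 0.102 CPM per kb and Ihh at 0. In CKO the order was Pth1r (10.4 CPM per kb), Smo (7.71), Pthlh (0.850), Gli3 (0.717), Gli2 (0.525), Ptch1 (0.244), Gli1 (0.174), Hhip (0.0758) and Ihh (0). The step from Smo to Pthlh was the only one between neighbors in CKO whose libraries did not overlap.

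**Figure D1:**
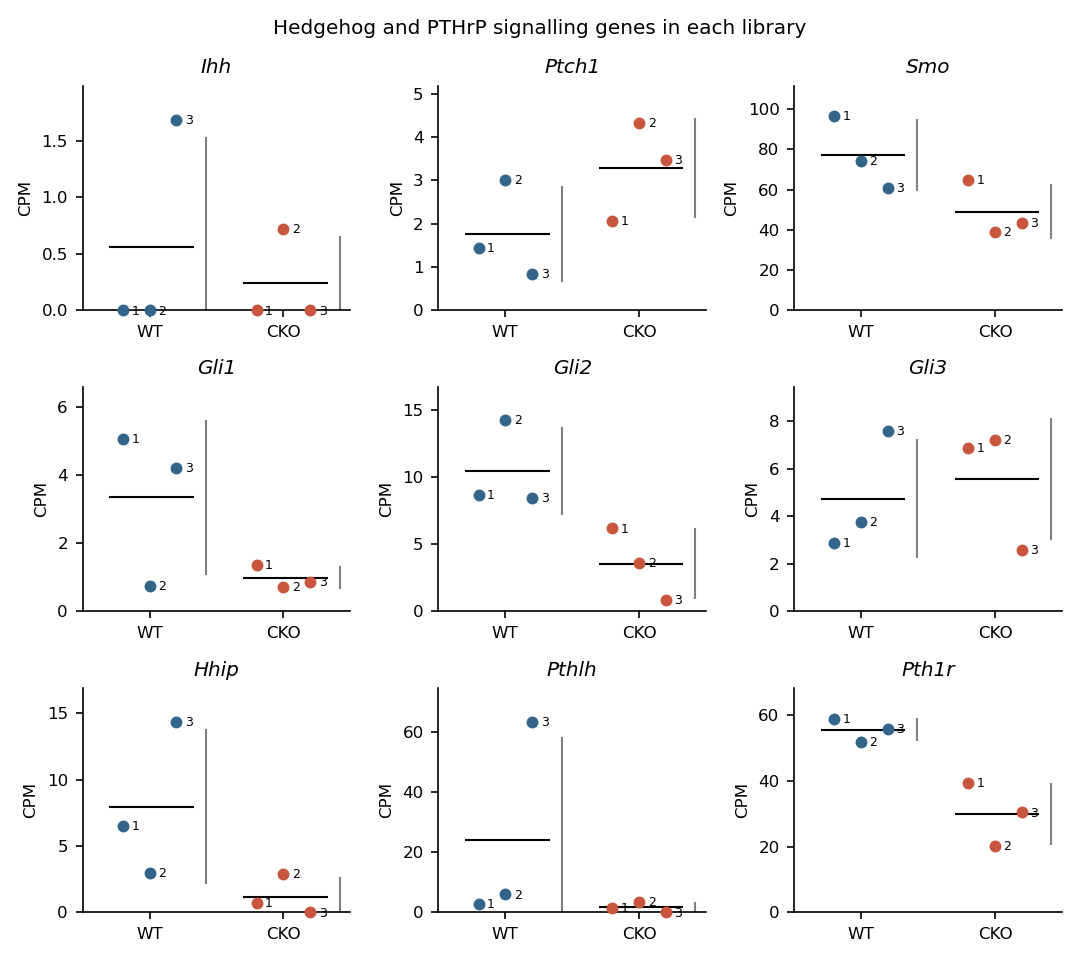
CPM of each of the 9 genes (y axis, a linear scale of its own in each panel) in the 3 WT (blue) and 3 CKO (red) libraries, numbered by replicate; the horizontal line is the mean and the gray bar the mean ± SD, drawn no lower than 0. Gli2, Hhip and Pth1r show no overlap between genotypes, and WT 3 stands far above all other libraries in Pthlh.

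Ihh, the ligand, lies at chr1:74945315-74951672 on the minus strand (GENCODE M21 on GRCm38, as for all positions of genes here) and was close to the limit of detection. It had 0, 0 and 2 reads in WT 1, 2 and 3 and 0, 1 and 0 reads in CKO 1, 2 and 3. The 3 reads among 7889392 in all 6 libraries correspond to 0.0784 to 1.11 CPM (exact Poisson 95% interval, counting error only). Both groups lay at or under the floor, no fold change was given, and a difference in Ihh was not detectable at this depth. Col10a1, a marker of hypertrophic chondrocytes chosen here after its values were seen, has exons of similar total length (3130 bp against 3048 bp for Ihh) and had 18, 21 and 52 reads in WT and 36, 63 and 19 reads in CKO. Of the other Hedgehog ligand genes, Dhh had at most 2 reads in a library and Shh was not among the genes analysed here.

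Smo (chr6:29735503-29761365, plus strand), the membrane protein that passes the signal on, was more abundant than Ptch1. Its level was 96.4, 74.3 and 60.8 CPM in WT 1, 2 and 3 (77.2 ± 17.96, SD, n = 3) and 64.6, 39.0 and 43.3 CPM in CKO 1, 2 and 3 (49.0 ± 13.7, SD, n = 3). CKO 1 lay above WT 3, so the groups overlapped. The log2 fold change was -0.65 (SE 0.25, 95% interval -1.21 to -0.10) and did not pass the threshold of 0.05 for the p adjusted over all genes tested (adjusted p = 0.164, limma). A stretch of 339 bp of Smo is 97.9% identical to the annotated gene Gm4066, and how reads from it were divided is not known.

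Ptch1, the receptor that holds Smo inactive and is itself a target of the pathway, was low in every library. It had 2, 4 and 1 reads in WT (1.45, 3.002 and 0.845 CPM) and 3, 6 and 4 reads in CKO (2.06, 4.33 and 3.47 CPM). The groups overlapped, and the ratio of reads was 1.81 with a counting interval of 0.672 to 5.36. With limma the log2 fold change was 0.67 (SE 0.48, 95% interval -0.40 to 1.74, adjusted p = 0.466), an interval that spans both directions.

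Of the Gli factors, Gli2 (chr1:118834132-119053619, minus strand), the main activator in most tissues, showed no overlap between genotypes. It had 8.70, 14.3 and 8.45 CPM in WT 1, 2 and 3 (12, 19 and 10 reads) and 6.19, 3.61 and 0.867 CPM in CKO 1, 2 and 3 (9, 5 and 1 reads). Every CKO library lay below every WT library, and CKO 3 was the lowest. Its log2 fold change was -1.50 (SE 0.52, 95% interval -2.64 to -0.36, adjusted p = 0.123), and the ratio of reads was 0.357 (counting interval 0.184 to 0.659). Without CKO 3 the log2 fold change was -0.96 (adjusted p = 0.309).

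Gli3 (chr13:15463235-15730026, plus strand), the main repressor, had 2.90, 3.75 and 7.60 CPM in WT and 6.88, 7.22 and 2.60 CPM in CKO. Both groups covered about the same range. For Gli3 the log2 fold change was 0.18 (SE 0.48, 95% interval -0.89 to 1.25, adjusted p = 0.868) and its sign turned when WT 1 or CKO 2 was left out (-0.055 and -0.026). Gli1 (chr10:127329882-127341974, minus strand), an activator and a transcriptional target of the pathway, had 7, 1 and 5 reads in WT and 2, 1 and 1 reads in CKO. WT 2 lay within the CKO range, while WT 1 and WT 3 lay above all CKO libraries. Between genotypes the log2 fold change was -0.95 (SE 0.56, 95% interval -2.20 to 0.29, adjusted p = 0.361). The mean level of Gli1 reached 1 CPM only through WT, and the ratio of reads was 0.300 (counting interval 0.0713 to 0.972). Gli1 overlaps Arhgap9 on the opposite strand, on which 0 to 3 reads per library were counted.

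Hhip, a membrane protein that sequesters Hedgehog ligands and is itself induced by them, was lower in CKO without overlap. It had 6.52, 3.002 and 14.4 CPM in WT 1, 2 and 3 (9, 4 and 17 reads) and 0.688, 2.89 and 0 CPM in CKO 1, 2 and 3 (1, 4 and 0 reads). WT 2 and CKO 2 both had 4 reads, so the separation of the groups rested there on the library totals alone. The log2 fold change was -2.05 (SE 0.64, 95% interval -3.46 to -0.63, adjusted p = 0.0923), and the ratio of reads was 0.163 (counting interval 0.0493 to 0.423). With CKO 2 left out, the fold change was -2.57 and Hhip passed the threshold (adjusted p = 0.0261), in a fit that called 10.8% of all genes.

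Hhip and Ptch1 are textbook negative-feedback targets of Gli factors, so the sequences around their start sites are shown. Neither passed the adjusted threshold. Both come from RefSeq (GRCm38.p6), run 5′ to 3′ along the gene and cover 250 bases before to 50 after the annotated start. Hhip lies at chr8:79965851-80058006 on the minus strand and the window shown at chr8:80057959-80058258. Ptch1 lies at chr13:63508328-63573598 on the minus strand and its window at chr13:63565686-63565985, inside the gene as GENCODE annotates it. Capitals mark the 9 bases closest to the Gli consensus GACCACCCA on either strand.
Hhip: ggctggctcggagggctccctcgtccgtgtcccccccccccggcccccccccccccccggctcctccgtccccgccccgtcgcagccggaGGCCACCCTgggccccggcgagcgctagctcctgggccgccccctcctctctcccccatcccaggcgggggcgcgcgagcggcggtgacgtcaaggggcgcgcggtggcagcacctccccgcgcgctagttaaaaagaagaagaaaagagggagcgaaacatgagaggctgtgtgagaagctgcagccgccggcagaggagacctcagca
Ptch1: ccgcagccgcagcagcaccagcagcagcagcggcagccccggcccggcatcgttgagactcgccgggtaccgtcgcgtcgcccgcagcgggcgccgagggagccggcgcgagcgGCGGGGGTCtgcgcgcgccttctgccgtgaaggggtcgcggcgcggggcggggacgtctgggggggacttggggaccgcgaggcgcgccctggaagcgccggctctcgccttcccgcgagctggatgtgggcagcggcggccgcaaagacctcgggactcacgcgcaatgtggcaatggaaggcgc
The closest 9 bases differed from the consensus at 2 positions in Hhip and at 3 in Ptch1, and windows within 2 mismatches occurred in 58.3% of all 32851 promoters of the same length. RefSeq windows were found for 8 of the 9 genes (10 windows), Gli1 having none in the table used. None of the 10 held the consensus or its core GACCACCC, which occurred in 0.253% and 0.807% of all promoters, the core being contained in the consensus. This says only that these letters are not in these windows.

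Pthlh (chr6:147252101-147264183, minus strand), which encodes the PTHrP ligand, had 2.90, 6.004 and 63.4 CPM in WT 1, 2 and 3 (4, 8 and 75 reads) and 1.38, 3.61 and 0 CPM in CKO 1, 2 and 3 (2, 5 and 0 reads). WT 3 stood far above the other libraries, and CKO 2 lay above WT 1, so the groups overlapped. The WT mean of 24.1 ± 34.05 CPM (SD, n = 3) was set by WT 3, against 1.66 ± 1.82 CPM (SD, n = 3) in CKO. The log2 fold change was -2.44 (SE 0.94, 95% interval -4.52 to -0.36, adjusted p = 0.166), and without WT 3 it was -1.23 (adjusted p = 0.365). Markers of resting and periarticular chondrocytes, the cells known to make PTHrP, summed to 1659, 1562 and 3046 CPM in WT 1, 2 and 3 and to 719, 362 and 686 CPM in CKO 1, 2 and 3. They were thus also highest in WT 3. Ucma made up most of the WT sums, and without it the sums ranged from 487 to 824 CPM in WT and from 238 to 570 CPM in CKO and overlapped. The part of these cells in the difference in Pthlh was not tested. Among the WT libraries, WT 3 was also highest in most other marker sums given below. They include those of proliferating and hypertrophic chondrocytes, perichondrium, tendon, macrophages and skeletal muscle.

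Pth1r (chr9:110722085-110747145, minus strand), the receptor of PTHrP, did not overlap between genotypes. Its level was 58.7, 51.8 and 55.8 CPM in WT 1, 2 and 3 (55.4 ± 3.48, SD, n = 3; 81, 69 and 66 reads) and 39.2, 20.2 and 30.3 CPM in CKO 1, 2 and 3 (29.9 ± 9.50, SD, n = 3; 57, 28 and 35 reads). Every CKO library lay below every WT library, and CKO 2 was the lowest. The log2 fold change was -0.91 (SE 0.26, 95% interval -1.48 to -0.35, adjusted p = 0.0661) and lay between -1.13 and -0.67 when single libraries were left out. The ratio of reads was 0.542 (counting interval 0.430 to 0.681). Pth1r overlaps Myl3 on the opposite strand, on which 0 to 3 reads per library were counted.

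**Figure D2:**
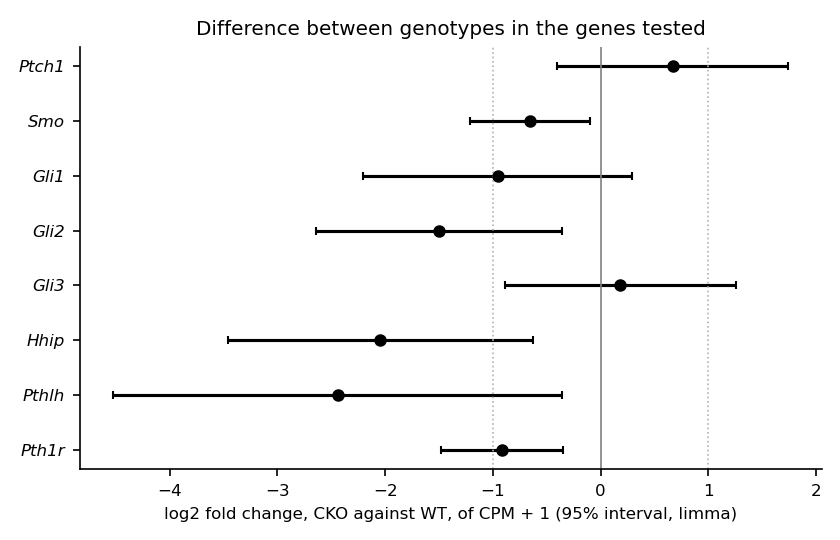
Log2 fold change of CKO against WT (x axis, of CPM + 1, limma) with its 95% interval for the 8 genes tested; the solid line marks 0 and the dotted lines a fold change of 1 on the log2 scale in either direction. The intervals of Smo, Gli2, Hhip, Pthlh and Pth1r lie below 0 before adjustment for the number of genes tested.

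Of the 8 genes tested, whose mean reached 1 CPM, 0 passed an adjusted p of 0.05 with limma, where 5.78% of the 12155 genes tested did. The edgeR quasi-likelihood test, whose filter on low counts retained 3 of the genes (Smo, Gli2 and Pth1r), also called 0 of them and 9.57% of all genes it tested, and DESeq2, which gave Gli1 and Ihh no adjusted p, called 0 of the others and 6.02% of the 10584 genes with an adjusted p. At an unadjusted p under 0.05, 5 genes (Smo, Gli2, Hhip, Pthlh and Pth1r) were lower in CKO, a class that held 10.1% of all genes tested. The criterion stated for the study, an unadjusted p under 0.05 together with a change of more than 1 on the log2 scale, was met by Gli2, Hhip and Pthlh, all lower in CKO, and by 5.1% of all genes in that direction. Without CKO 3 only Hhip met it, without WT 3 Pthlh did not, without WT 2 Gli1 met it in place of Gli2, and without CKO 1 Pth1r met it too. The genotypes did not overlap and were lower in CKO for Gli2, Hhip and Pth1r, and for 13.2% of all genes tested. For each of these 3 genes the exact two-sided permutation test gave p = 0.1, the smallest that 3 against 3 libraries can give.

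When WT 3 and CKO 2 were left out together, an alternative added after the data were seen, Smo (-0.67, adjusted p = 0.0207), Gli2 (-1.73, adjusted p = 0.0338), Hhip (-2.08, adjusted p = 0.0242) and Pth1r (-0.66, adjusted p = 0.0261) passed the threshold. In that fit of 2 against 2 libraries 20.2% of all genes tested were called. Pthlh did not pass (-1.76, adjusted p = 0.0596).

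**Figure D3:**
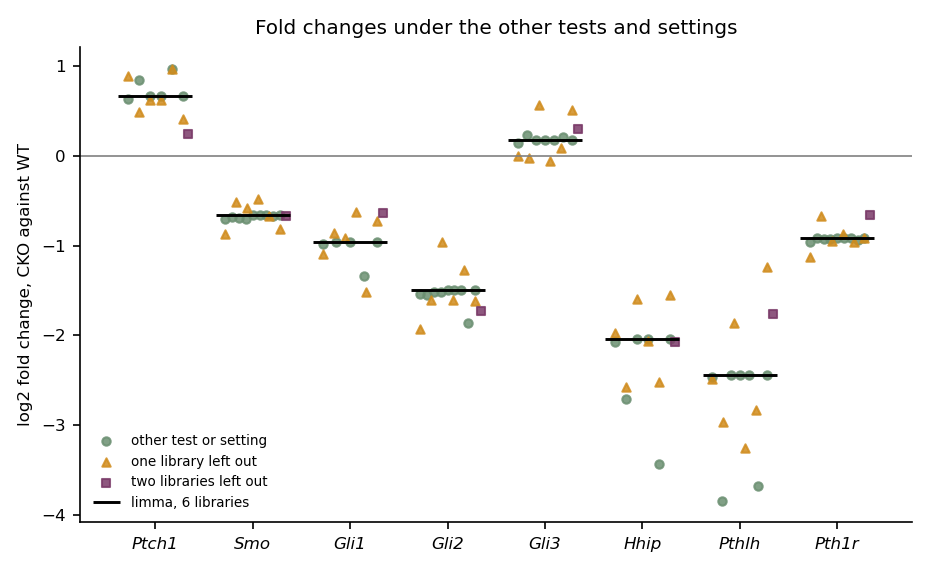
Log2 fold change of CKO against WT (y axis) of the 8 genes tested under each other test or setting (green circles), with a single library left out (orange triangles) and with WT 3 and CKO 2 left out (purple squares); the black line is limma on 6 libraries. Smo, Gli1, Gli2, Hhip, Pthlh and Pth1r stayed below 0 and Ptch1 above 0 throughout, while Gli3 crossed 0.

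The other genes of the pathways were taken from lists of ligand release, co-receptors, control of Smo and Gli, Hedgehog targets and PTHrP signaling. Of 103 genes listed, 95 were in the table and 82 were tested. With 4 higher and 4 lower in CKO, 9.76% of them passed the adjusted threshold, against 5.78% of all genes tested. The lists were written with earlier results of these data known, so the larger share is not an independent result. The fold change was positive for 40 and negative for 42, and its median was -0.02 on the log2 scale, against 0.01 for all genes tested. None of the 8 genes of ligand release (median -0.47) and none of the 25 genes that control Smo and Gli (median -0.04) passed. Sufu, which holds Gli factors in the cytoplasm and was chosen after its values were seen, had a mean of 8.45 ± 1.79 CPM in WT against 8.47 ± 3.32 CPM in CKO (SD, n = 3).

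Among 6 co-receptor genes, Gpc3 fell. This glypican, which competes with Ptch1 for Hedgehog ligands, had 215, 199 and 226 reads in WT and 69, 49 and 48 reads in CKO, a mean of 165 ± 22.4 against 41.5 ± 6.04 CPM (SD, n = 3; log2 fold change -1.97, SE 0.19, adjusted p = 0.000654). It passed the threshold with each library left out. The co-receptors Cdon and Gas1, which present ligand to Ptch1 and were chosen after their values were seen, did not overlap between genotypes and differed in opposite directions without passing. Cdon had 28, 24 and 21 reads in WT and 83, 35 and 62 in CKO (log2 fold change 1.15, adjusted p = 0.0587), and Gas1 had 40, 48 and 60 reads in WT and 34, 14 and 22 in CKO (-1.13, adjusted p = 0.0802).

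Of 11 Hedgehog target genes tested, Ccnd1 rose and Cdkn1b and Igf2 fell. Ccnd1, the cyclin of the early G1 phase, went from 32.4 ± 3.90 CPM in WT to 80.8 ± 4.76 CPM in CKO (SD, n = 3; log2 fold change 1.30, adjusted p = 0.00505) and passed with each library left out. Cdkn1b, an inhibitor of cyclin-dependent kinases, had 18, 19 and 23 reads in WT and 2, 4 and 4 in CKO (-2.24, adjusted p = 0.0102). It was lost without WT 2 (adjusted p = 0.0544). Igf2, a growth factor, stood at 1762 ± 79.9 and 937 ± 326 CPM (-0.98, adjusted p = 0.0402) and was lost without WT 1, WT 2, WT 3 or CKO 3, with an adjusted p of up to 0.149, with a pseudocount of 0.1 (0.0523), with the replicate number as a block (0.0563) and without the mean-variance trend (0.163). These genes also respond to other signals, and the part of Hedgehog signaling in their changes was not tested. Gli1, Ptch1 and Hhip, also targets of the pathway, did not pass and rest on 0 to 17 reads per library.

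Of 35 genes of the PTHrP list, Ccnd1, Rgs2, Fos and Junb rose and Cdkn1c fell. Rgs2, a regulator of G protein signaling, had 8, 12 and 12 reads in WT and 53, 31 and 30 in CKO (log2 fold change 1.65, adjusted p = 0.0155). Fos, an immediate early gene, had 3, 3 and 2 reads in WT and 20, 18 and 13 in CKO (2.17, adjusted p = 0.00795), and Junb, its partner in AP-1, stood at 33.3 ± 9.02 and 83.7 ± 11.5 CPM (1.33, adjusted p = 0.0121). Cdkn1c, the cell cycle inhibitor p57 that PTHrP is known to repress, went from 168 ± 17.2 CPM in WT to 56.8 ± 20.1 CPM in CKO (-1.61, adjusted p = 0.00788). Fos passed with each library left out. Cdkn1c was lost without WT 1 or WT 2 (adjusted p of up to 0.0559), Junb without WT 2, CKO 1 or CKO 3 (up to 0.0640) and Rgs2 without WT 1, WT 2, CKO 1 or CKO 3 (up to 0.0798). Without the mean-variance trend these 3 were lost as well (0.0664, 0.0707 and 0.0501). The ligand genes Pth and Pth2 were not among the genes analysed here, and the receptor gene Pth2r had 1 read in all.

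**Figure D4:**
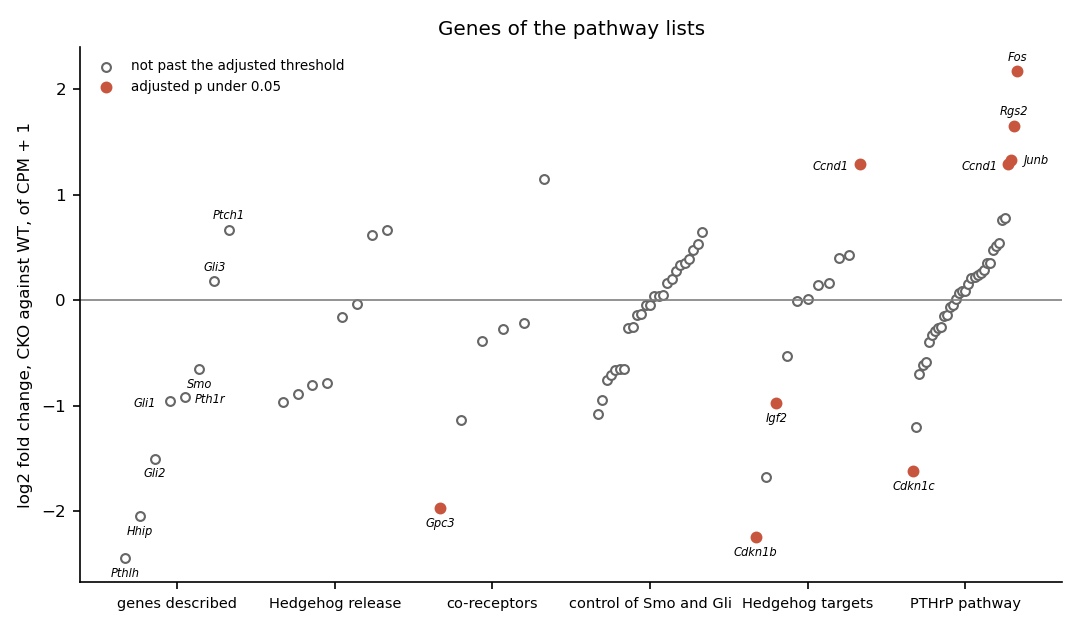
Log2 fold change of CKO against WT (y axis, of CPM + 1, limma) for the 8 genes described and for the tested genes of 5 pathway lists, ordered by value within each list; a gene of more than 1 list, such as Ccnd1, is drawn in each. Filled red points passed an adjusted p of 0.05, and none of the 8 genes described, all named in the plot, is among them.

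Markers of the zones in which these genes are known to be expressed were also compared. Of 10 markers of proliferating chondrocytes Cnmd, Matn1, Col2a1, Comp and Acan fell, all genes of matrix or secreted proteins. These genes are also among the chondrocyte markers summed above, so their fall is not a separate result. The summed level of the list was 21048 to 24634 CPM in WT and 4421 to 4590 CPM in CKO. Col2a1 was lost without WT 2, CKO 1 or CKO 3 (adjusted p of up to 0.0694, limma). Without the mean-variance trend Col2a1 (0.103) and Acan (0.0775) were lost. The genes of the same list that mark dividing cells, chosen after their values were seen, did not pass and overlapped between genotypes, with log2 fold changes of 0.25 for Pcna, 0.16 for Cdk1, -0.12 for Top2a and -0.62 for Mki67. Of 11 tested markers of resting and periarticular cells Ucma and Sfrp5 fell and Prg4, a lubricant of the joint surface, rose (log2 fold change 3.16, adjusted p = 0.00123). Sfrp5 had 9, 10 and 9 reads in WT and 0 in all CKO libraries.

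Markers of prehypertrophic and hypertrophic chondrocytes, in which Ihh is made, summed to 1579, 1602 and 4693 CPM in WT 1, 2 and 3 and to 14161, 12487 and 15328 CPM in CKO 1, 2 and 3. Spp1 alone passed among 14 (2.84, adjusted p = 0.00403) and made up most of that sum, and osteoblasts and macrophages express it too. Without Spp1 the sums were 507 to 923 CPM in WT and 610 to 3284 CPM in CKO and overlapped. Col10a1 did not pass (0.33, adjusted p = 0.738). With 1 read of Ihh in CKO and 2 in WT, too few to compare, no relation of Ihh to these markers could be read.

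Markers of other cells were compared too, and some of their sums differed between genotypes. Smo, Gli2, Hhip, Pthlh and Pth1r had lower means in CKO, but none passed the adjusted threshold with 6 libraries. The part of other cells in these lower means was not tested. Summed epidermal markers were 32.9 to 63.0 CPM in WT and 222 to 259 CPM in CKO, with Sbsn, Slurp1 and Perp higher of 5 tested and with the keratin genes Krt5 and Krt14 not among the genes analysed here. Macrophage and osteoclast markers were 107 to 172 CPM in WT and 198 to 224 CPM in CKO, with Cd68 higher of 9 tested. Without Cd68 the sums overlapped (97.8 to 161 and 122 to 177 CPM). The log2 fold change was positive for all 9, with a median of 0.67, and only Cd68 passed. Markers of perichondrium and osteoblasts were 2489 to 4328 CPM in WT and 1283 to 2078 CPM in CKO (Col1a2 lower, of 11 tested). That sum consisted mostly of Col3a1, Col1a2 and Col1a1, while the log2 fold change was positive for 6 of the 11 with a median of 0.33, and Bglap and Sp7, osteoblast genes chosen after their values were seen, had 1.04 and 0.46 without passing. Markers of tendon and fibroblasts were 651 to 965 and 253 to 442 CPM (Fmod lower, of 8 tested). Fmod was lost without WT 1, WT 2 or WT 3 (adjusted p of up to 0.102, limma). Col1a2 was lost without WT 2 (0.0863) or CKO 3 (0.0594). Without the mean-variance trend both Fmod (0.118) and Col1a2 (0.115) were lost. Perichondrial cells are known to respond to Hedgehog ligands. Skeletal muscle (48.0 to 211 CPM in WT, 111 to 281 in CKO), endothelium (8.70 to 17.3 and 10.3 to 19.1) and erythroid markers (0.725 to 5.25 and 2.06 to 28.9) overlapped between genotypes. None of their tested genes passed. The highest muscle sums were those of WT 3 (211 CPM) and CKO 2 (281 CPM). Without Myog, chosen after its values were seen, the muscle sum of CKO 2 was 102 CPM and that of WT 3 was 177 CPM.

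**Figure D5:**
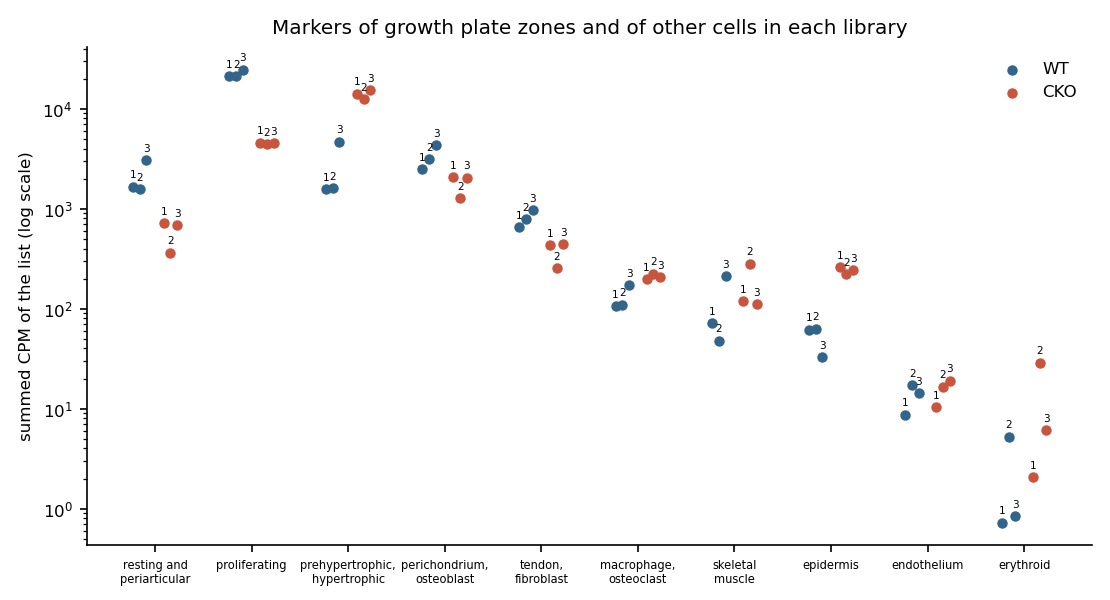
Summed CPM (y axis, log scale) of the markers of each growth plate zone and of other cell types in the 3 WT (blue) and 3 CKO (red) libraries, numbered by replicate, with the 9 genes described left out. The resting, proliferating, osteoblast and tendon lists were lower and the hypertrophic, macrophage and epidermal lists higher in every CKO library than in every WT library as sums, but without Ucma, Spp1 or Cd68 the resting, hypertrophic and macrophage sums overlapped. WT 3 was highest of WT in the first 6 lists and in skeletal muscle, where CKO 2 was highest of all libraries. The genes that passed in the proliferating list are also chondrocyte markers.

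Genes with the most similar pattern over the 6 libraries were sought among 7546 genes with a mean of at least 10 reads, by Pearson's r of log2(CPM + 1). The values describe a choice of the highest among many genes measured in the same libraries. For Pth1r they were Cant1 (r = 0.996), Tmem150a (0.996) and Rtraf (0.994), and 94 genes exceeded r = 0.95. For Smo they were Stx17 (0.996), Ube2e3 (0.987) and a noncoding gene without a position in the annotation (0.986). For Gli2 they were Scyl3 (0.995), Ift172 (0.992), a component of the transport machinery of cilia, and Thap3 (0.984).

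For Hhip the most similar were Hnrnph1 (0.994), Ung (0.993) and Mgrn1 (0.992), and 59 genes exceeded r = 0.95. For Pthlh they were Zcchc8 (0.994), Casc4 (0.980) and Gm49378 (0.976). For Gli1 they were Polr3d (0.965), Fchsd2 (0.960) and Topors (0.957), and for Ptch1 Katnbl1 (0.985), Ints7 (0.978) and Sh3bp5l (0.977). The patterns of Gli1 and Ptch1 rest on 1 to 7 reads per library. Those of Hhip and Gli2 rest on 0 to 17 and 1 to 19 reads, and that of Pthlh on 0 to 8 reads outside WT 3, which had 75.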

How the data were processed

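Poly(A) libraries of growth plate cartilage, made with a stranded mRNA kit, were analysed in 3 WT and 3 CKO samples, grouped by their titles. The authors deposited CPM per gene. The submitters' processing notes name cutadapt 2.5, HISAT2 and featureCounts 1.6.3, while the genome build, annotation and strand setting are not given in the sources used here. Divided by what 1 read is worth in its library, 100% of the deposited CPM values came out whole (tolerance 0.001 reads), so reads were recovered. Exon lengths and positions came from GENCODE M21 on GRCm38, in which 15212 of 15217 Ensembl identifiers were found. The other 586 identifiers have no position there.

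Genotypes were compared with limma 3.58.1 (R 4.3.3) on log2(CPM + 1), with empirical Bayes moderation and a mean-variance trend, in genes whose mean reached 1 CPM and with Benjamini-Hochberg adjustment over all of them. Fold changes on this scale understate the change of low genes. The study compared littermates in independent groups, but the sources used here tie no library to an embryo or litter, so p-values measure the spread between these libraries, which may be technical. Alternatives were a pseudocount of 0.1, no filter, a mean of at least 5 CPM, a term for the replicate number, no trend, TMM-scaled CPM, edgeR 4.0.16 (quasi-likelihood, TMM and RLE) and DESeq2 1.42.0 on the recovered reads, and each library left out. WT 3 and CKO 2 were left out together, and marker sums were formed without the gene that differed most in mean CPM, after the data were seen. Near-identical copies were sought with BLAST (identity from 90%, length from 300 bp). Counting intervals are exact 95% intervals.

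The members and lists were chosen with earlier results of these data known. Genes named are the 9 genes, called genes of the pathway lists, called genes or the most abundant gene of each marker list, and the 3 genes most similar to each member (for Gli3 not reported here); others are said to be chosen after their values were seen.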

Additional observations from a re-analysis of the deposited data

How the results depend on the processing

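Of 114 alternatives that gave an adjusted p for the 8 genes tested, 107 kept the direction and the side of the adjusted threshold, 5 newly passed it and 2 turned the sign. Both were of Gli3, with -0.055 without WT 1 and -0.026 without CKO 2, in a range of -0.055 to 0.57 with a library left out. The fold change is the same by construction without a filter, with a mean of at least 5 CPM, with the replicate block and without the trend. Those alternatives could therefore not turn a sign. The number of the 9 genes called was 0 with 6 libraries and 4 with WT 3 and CKO 2 left out together. It was 0 to 1 with a single library left out. The criterion of the study was met by 3 genes, and by 1 to 4 with a library left out. With edgeR under TMM or RLE factors 1 gene met it, and the filter on low counts retained 3 of the genes (Smo, Gli2 and Pth1r). Without the mean-variance trend 2 genes met the criterion, and Pthlh did not (unadjusted p = 0.0583, limma). In that setting Smo also had an unadjusted p above 0.05 (0.0626, limma). With a mean of at least 5 CPM 2 genes met the criterion, and Hhip was not tested. Over all genes, 387 higher and 316 lower calls became 134 and 81 without the mean-variance trend, 1312 and 1098 with WT 3 and CKO 2 left out, and 123 to 692 and 79 to 606 with a library left out. The 8 calls of the pathway lists became 4, 18 and 3 to 15 in the same order. With the replicate number as a block, 225 genes were higher and 160 lower, and 0 of the 9 were called. Deviations of same-numbered libraries from their group means correlated with 0.0729, -0.208 and -0.155. With 3 libraries per group, and with WT 3 and CKO 2 standing apart, these values cannot tell whether the numbers pair the samples. TMM scaling moved the median log2 fold change of all genes from 0.01 to -0.03. Ihh gave a fold change only without a filter and in DESeq2, which gave Ihh and Gli1 no adjusted p. Depth limits Ihh, Ptch1, Gli1, Gli3 and Hhip, with 0 to 17 reads per library. It also limits Gli2, with 1 to 19 reads, and Pthlh, with 0 to 8 reads outside WT 3. Smo and Pth1r, with 28 to 133 reads, passed only with WT 3 and CKO 2 left out.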

Other observations

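The balance of Gli2 and Gli3, a ratio chosen after the values were seen, can be read within each library and so does not depend on library totals. Gli2 took 75% (exact 95% interval 47.6 to 92.7), 79.2% (57.8 to 92.9) and 52.6% (28.9 to 75.6) of the reads on both genes in WT 1, 2 and 3. In CKO 1, 2 and 3 the share was 47.4% (24.4 to 71.1), 33.3% (11.8 to 61.6) and 25% (0.631 to 80.6). The groups did not overlap, but WT 3 and CKO 1 lay close together and the intervals were wide. The exact two-sided permutation p was 0.1, the smallest this design allows, and CKO 3 rests on 4 reads.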
